A study of Homo sapiens with 2 samples.

Results

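PHF8 peaks in the centromere intervals of chromosomes 2, 4, 8, 18 and 20 were described in chromatin immunoprecipitation sequencing (ChIP-seq) of RKO cells, an established human colon carcinoma cell line. A peak was taken when it lay fully within chr2:92035128-94192530, chr4:49589729-51833883, chr8:43540928-46549088, chr18:15400000-20900000 or chr20:25700000-30400000 (GRCh38). By this rule 557 of 4015 vector peaks and 683 of 8928 APOC2 peaks were members, 1240 of 12943 in all, and no peak straddled an edge of an interval. The cells had been transfected with an empty vector in the control group and with a plasmid overexpressing APOC2, an apolipoprotein gene, in the other group, and both were immunoprecipitated with the same PHF8 antibody. Each group had 1 library and no replicate, so every difference below describes these libraries, no p-value was computed, and intervals cover counting error over peaks only. Overlapping bounds do not show that values are equal. The level of APOC2 reached in the transfected cells was not analysed here.

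Human centromeres are built on alpha satellite, a short repeat stacked head to tail in large arrays that carry the centromeric histone variant CENP-A at their core and silenced, histone-methylated chromatin around it. The arrays fall into suprachromosomal families by the types of repeat unit they hold, and the chromosomes described here share family 2, as do chromosome 9 and the acrocentric chromosomes, which the rule left out. PHF8 binds trimethylated histone H3 at active promoters through its PHD finger and removes repressive methyl groups from histones, and it is best known from gene promoters and ribosomal RNA genes. In GRCh38 the centromere arrays are modelled sequences in which the order of repeats is not that of a real chromosome, so positions within an interval are addresses in that model. Fragments from near-identical repeats can align to several places, and how such reads were treated is not given in the sources used here. Its part in the results was not tested, and no sequence was at hand to check how much of each interval is alpha satellite.

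Chromosomes 2, 4, 8 and 18 had 0 annotated genes in their intervals, whereas the interval of chromosome 20 held 47 annotated genes, of which 17 were long noncoding RNAs, 29 pseudogenes of either kind, 1 a microRNA gene and 0 protein-coding. The interval of chromosome 20 thus reached into annotated flanks. A lack of annotated genes does not by itself show that an interval is centromeric, so the label was not checked. Only 5 vector and 6 APOC2 peaks, all on chromosome 20, lay within 1 kb of a gene.

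The intervals differed several-fold in how densely they were filled, and chromosome 18 stood below the others in both libraries. In the vector library the density was 47.5 peaks per Mb on chromosome 8 (143 peaks, exact Poisson 95% interval 40.1 to 56.0) and 46.8 on chromosome 20 (220 peaks, 40.8 to 53.4). It was 41.4 on chromosome 4 (93 peaks, 33.5 to 50.8), 30.1 on chromosome 2 (65 peaks, 23.3 to 38.4) and 6.55 on chromosome 18 (36 peaks, 4.58 to 9.06). The bounds of neighbours in this order overlapped, except that chromosome 18 lay below all the rest. In the APOC2 library the densities were 58.2 on chromosome 8 (175 peaks, 49.9 to 67.5), 52.1 on chromosome 20 (245 peaks, 45.8 to 59.1) and 49.6 on chromosome 2 (107 peaks, 40.7 to 59.9). Chromosome 4 had 45.0 (101 peaks, 36.7 to 54.7) and chromosome 18 had 10.0 (55 peaks, 7.53 to 13). Chromosome 2 thus stood above chromosome 4 in this order, but the bounds of chromosomes 2, 4, 8 and 20 all overlapped.

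**Figure D1:**
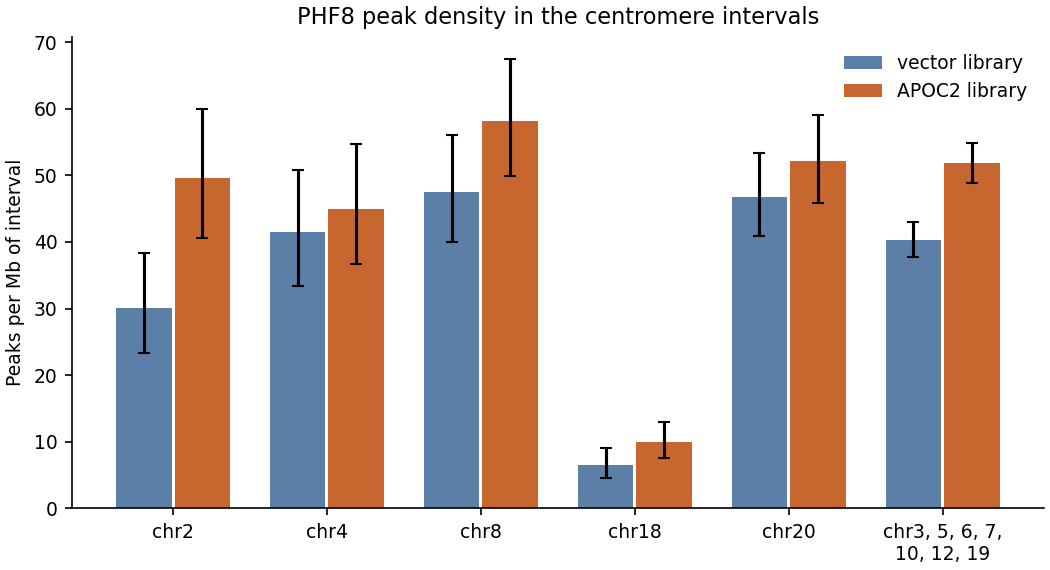
Peaks per Mb of interval (vertical axis) for each chromosome and, at the right, for 7 other centromere intervals pooled, in the vector and APOC2 libraries, with exact Poisson 95% intervals as error bars. Chromosome 18 lies at 6.55 and 10.0 peaks per Mb and chromosomes 2, 4, 8 and 20 lie between 30.1 and 58.2.

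For comparison, the longest stretch without an annotated gene was taken on chromosomes 3, 5, 6, 7, 10, 12 and 19, whose arrays belong to another family. These 7 intervals held 910 vector and 1170 APOC2 peaks, or 40.3 (37.7 to 43.0) and 51.8 (48.9 to 54.9) per Mb, against 31.6 (29.1 to 34.4) and 38.8 (35.9 to 41.8) over the 5 family 2 intervals. That difference rested on the long, sparse interval of chromosome 18, without which the family 2 densities were 43.0 (39.4 to 46.9) and 51.9 (47.9 to 56.1), a setting added after the data were seen. Low density was not limited to chromosome 18, since the interval of chromosome 3 had 10.7 vector and 15.0 APOC2 peaks per Mb and that of chromosome 7 had 14.7 and 21.5.

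The peaks were not spread evenly within the intervals. On chromosome 2, 29 of 65 vector and 43 of 107 APOC2 peaks fell in the 250 kb from 92285128 to 92535127. On chromosome 18 the first 250 kb held 10 of 36 vector and 15 of 55 APOC2 members. Over that whole interval the median distance between neighbouring summits was 83.8 kb (36.3 to 145) in the vector library and 44.0 kb (18.7 to 97.3) with APOC2. Chromosome 20 had medians of 6.26 kb (4.79 to 8.58) and 6.81 kb (5.09 to 8.37), and chromosome 2 had 13.4 kb (5.37 to 17) and 5.52 kb (3.8 to 7.90). On chromosome 8 the peaks formed a block from 43968414 to 45937261 in the vector library, with none in the outer 427 kb on the left and 612 kb on the right, and the APOC2 block began and ended within 100 bp of it. The last stretch of the chromosome 4 interval, from 51589729 on, was its densest, with 22 vector and 23 APOC2 peaks. In each of these places peaks were concentrated in both libraries.

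**Figure D2:**
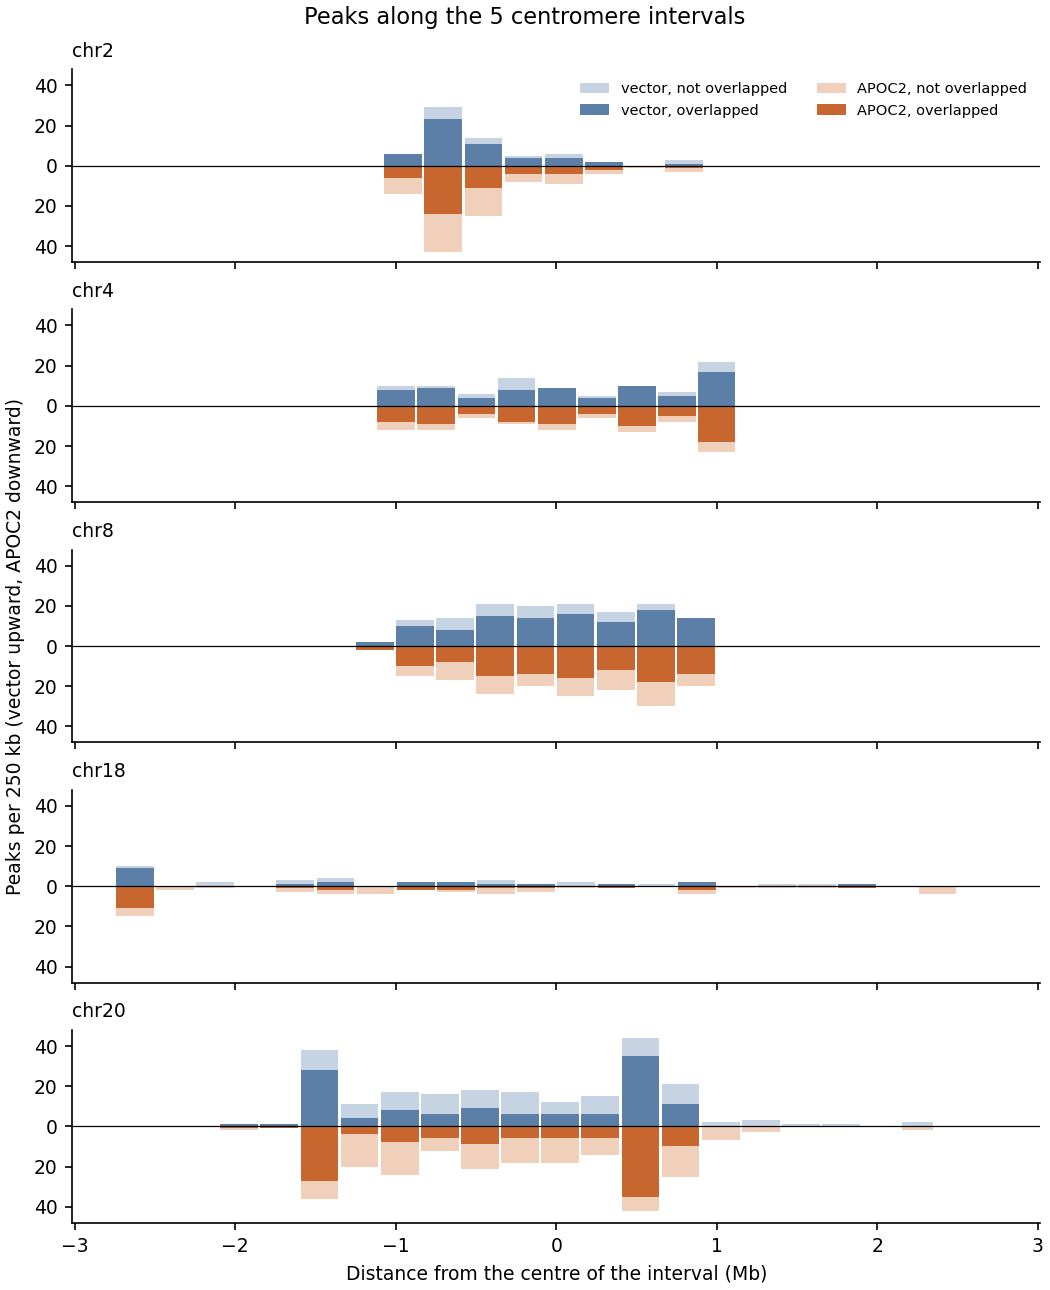
Number of peaks per 250 kb along each interval, drawn by distance from its centre in Mb, with vector peaks upward and APOC2 peaks downward and the darker part of each bar showing peaks overlapped by the other library. Peaks crowd at the left on chromosomes 2 and 18, fill a central block on chromosome 8 and rise in separate blocks near both ends of the filled part on chromosome 20.

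At the edges, the nearest peaks outside an interval lay between 20.8 kb and 2408 kb away. Within 500 kb outside the chromosome 4 interval there were 23 vector and 33 APOC2 peaks, and the nearest of them was 46.8 kb (vector) and 42.9 kb (APOC2) from its left edge. The first peaks inside that edge were 57.7 kb from it in both libraries. For the other intervals at most 8 peaks lay within 500 kb outside.

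Most members were low, narrow peaks over a control with almost no signal. The median summit height was 15 fragments in the vector library (quartiles 12 and 21) and 11 fragments in the APOC2 library (quartiles 9 and 15), where the height is the number of overlapping fragments at the summit. At 520 of 557 vector summits (93.4%, 95% Wilson interval 91.0 to 95.1%) and 635 of 683 APOC2 summits (93.0%, 90.8 to 94.7%), the local background was at most 1 control fragment, with a tolerance of 0.05. Over all peaks of the series this share was 54.7% and 33.1%, and in the comparison intervals 78.4% and 81.2%. Over such a background the fold enrichment, defined as pileup plus 1 over background plus 1, is a rescaled height and carries nothing further about the control. The lowest member had 8 fragments in the vector library and 6 in the APOC2 library.

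Chromosome 4 had the highest peaks and chromosome 18 the lowest. In the vector library the median height was 18 fragments (15 to 20) on chromosome 4, 16 (15 to 17) on chromosome 8, 15 (14 to 17) on chromosome 2, 14.5 (14 to 16) on chromosome 20 and 14 (12 to 16) on chromosome 18. The APOC2 medians were 13 (12 to 15) on chromosome 4, 11 on chromosomes 2, 8 and 20, and 10 (9 to 11) on chromosome 18. These bounds touched or overlapped between neighbours in the vector library, while in the APOC2 library chromosome 4 lay above chromosomes 18 and 20. The difference lay in the upper tail: the maximum was 438 fragments on chromosome 4, 222 on chromosome 8 and 130 on chromosome 20, but 31 on chromosome 2 and 23 on chromosome 18 in the vector library. The APOC2 maxima were 425, 165, 126, 26 and 31 in the same order of chromosomes.

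Peak length varied less than height. Many vector members were exactly 224 bp long, and APOC2 members were as short as 218 bp, so median lengths lay close to the shortest peaks. Whether these lengths are a lower limit of the peak caller was not tested. Median length was between 260 bp (chromosome 18, 237 to 306) and 322 bp (chromosome 20, 295 to 342) in the vector library and between 275 bp (chromosome 18) and 305 bp (chromosome 4) in the APOC2 library. The longest peaks were shared: chr20:26604559-26607995 spanned 3437 bp in the vector and chr20:26605099-26607995 spanned 2897 bp in the APOC2 library, with the same last base. At chr4:49709166-49711976 (vector) and chr4:49709173-49711976 (APOC2) the lengths were 2811 and 2804 bp, again with a common end. Of the 374 paired members, 7 ended and 1 began at the same base in both libraries.

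The strongest peaks recurred at the same addresses in both libraries. On chromosome 4 the vector peak at chr4:50676709-50677383 had 225 fragments and the APOC2 peak there 191, with fold enrichments of 112 and 106. The next on that chromosome, at chr4:50566984-50567437, had 115 and 84 fragments and fold enrichments of 57.5 and 47.0. On chromosome 8 the peaks at chr8:45187838-45188338 had 222 and 165 fragments and those at chr8:44977734-44978299 had 144 and 99. Of the 20 peaks with the highest fold enrichment of each whole table, 4 were members in either library, 2 each from chromosomes 4 and 8. Members were 13.9% of all vector and 7.65% of all APOC2 peaks. The centromere intervals used for comparison, with 22.7% and 13.1% of all peaks, held 11 and 10 of the same 20.

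Chromosome 20 was led by chr20:28517141-28518636, with 75 vector and 44 APOC2 fragments and fold enrichments of 37.6 and 24.6. Chromosomes 2 and 18 held no peak of that size. On chromosome 2 the highest vector peak, chr2:92300889-92301563, had a fold enrichment of 15.8, and the highest APOC2 peaks, chr2:92479816-92480114 and chr2:92762231-92762795, had 14.9 each. On chromosome 18 the highest were peaks of 11.9 at chr18:15467257-15467682 in the vector library and 11.6 at chr18:15407035-15408180 in the APOC2 library.

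Some of the tallest summits stood over a control that was also high. Backgrounds are given here as listed. The APOC2 values were not divided by their step of 0.83248, so they are in smaller units than the vector values. The chromosome 4 peak ending at 49711976 had 438 and 425 fragments, but background of 36 and 27.5, so that its fold enrichment was 11.7 (vector) and 15.0 (APOC2). Its pileups of 433 and 425 were close to the highest of each whole table, 443 and 436, and heights near that ceiling may be compressed. At chr4:51107152-51107597 the height was 252 and 231 fragments over backgrounds of 7 and 5.83. Within chr20:28494747-28498927 the vector library had 4 peaks over backgrounds of 7.91 to 58.0, with fold enrichments of 2.05 to 7.78, and the APOC2 library had 3, with 3.10 to 9.45. The highest APOC2 summit of chromosome 18, at chr18:20561727-20562057, had 31 fragments over a background of 9.98, and its nearest vector peak was 358749 bp away. At all of these sites the control was high where the ChIP signal was.

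Of the peaks near annotated genes, 1 of 5 in the vector library and 1 of 6 in the APOC2 library overlapped a peak of the other, and their fold enrichments were between 3.17 and 7.34. At LOC100134868, a long noncoding RNA gene, the peaks chr20:26010656-26010879 (vector) and chr20:26010635-26010926 (APOC2) overlapped, with fold enrichments of 6.24 and 7.34, and the APOC2 library had another at chr20:26009868-26010181 with 6.78. At FRG1BP, a transcribed pseudogene related to FRG1, the vector peaks were at chr20:30391292-30391515 and chr20:30393114-30393338 (6.93 and 6.94) and the APOC2 peaks at chr20:30376825-30377059 and chr20:30377225-30377442 (5.37 and 3.26), over 13 kb away. At FRG1DP, another such pseudogene, vector peaks of 3.75 and 3.17 and APOC2 peaks of 5.46 and 4.13 did not overlap either.

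The APOC2 library had 1.23 times as many member peaks as the vector library (95% interval 1.10 to 1.37). By chromosome the ratio was 1.65 on chromosome 2 (1.21 to 2.24), 1.53 on chromosome 18 (1.007 to 2.32), 1.22 on chromosome 8 (0.98 to 1.53), 1.11 on chromosome 20 (0.93 to 1.34) and 1.09 on chromosome 4 (0.82 to 1.44). The bounds of all 5 overlapped, so the order of the chromosomes was not resolved by counting error. With peaks under a fold enrichment of 5 dropped, the ratio was 1.06 (0.94 to 1.19) over the 5 intervals, 1.28 (0.92 to 1.76) on chromosome 2 and 1.18 (0.75 to 1.85) on chromosome 18, so that no excess was resolved. When only as many top-ranked APOC2 peaks were kept as the vector table has, the ratio over the 5 intervals turned to 0.39, since weak APOC2 peaks are dropped first and members were weak.

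Outside the intervals, the same chromosomes had far more additional peaks with APOC2. The ratio on the rest of the chromosome was 5.40 (4.20 to 6.94) for chromosome 2, 3.96 (2.95 to 5.32) for chromosome 4 and 2.77 (2.05 to 3.75) for chromosome 20, all above the interval of the same chromosome. It was 2.83 (2.02 to 3.95) for chromosome 18 and 1.73 (1.48 to 2.02) for chromosome 8, where the bounds overlapped those inside. Accordingly the share of a chromosome's peaks that lay in its interval was lower with APOC2: 47.4% against 21.6% on chromosome 2, 62.8% against 31.7% on chromosome 4 and 79.4% against 60.8% on chromosome 20. On chromosomes 8 and 18 it was 36.9% against 29.3% and 43.9% against 29.7%, with overlapping bounds. The comparison intervals had a ratio of 1.29 (1.18 to 1.40), close to that of the members.

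Among the 5 intervals, overlap between the libraries was lowest on chromosomes 18 and 20. A vector peak was overlapped by an APOC2 peak, by at least 1 bp, for 74 of 93 peaks on chromosome 4 (79.6%, 95% Wilson interval 70.3 to 86.5%), 51 of 65 on chromosome 2 (78.5%, 67.0 to 86.7%) and 109 of 143 on chromosome 8 (76.2%, 68.6 to 82.5%). It was so for 22 of 36 on chromosome 18 (61.1%, 44.9 to 75.2%) and 121 of 220 on chromosome 20 (55.0%, 48.4 to 61.4%). The upper bound for chromosome 20 lay below the lower bounds for chromosomes 2, 4 and 8. Over the 5 intervals the share was 67.7% (63.7 to 71.4%), against 83.6% of all vector peaks of the series and 82.2% (79.6 to 84.5%) in the comparison intervals. Without chromosome 20 it was 76.0% (71.1 to 80.2%), still lower than in the comparison intervals but with overlapping bounds. Low overlap was not limited to the members. The comparison interval of chromosome 6 had 64.8% (55.3 to 73.2%) and that of chromosome 3 had 72.0% (52.4 to 85.7%), while the others lay between 80.4% and 87.0%.

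Counted from the APOC2 side, 74.3% (65.0 to 81.8%) of peaks on chromosome 4 were overlapped by a vector peak and 62.3% (54.9 to 69.1%) on chromosome 8. The shares were 48.6% on chromosome 2 (39.3 to 58.0%), 48.6% on chromosome 20 (42.4 to 54.8%) and 43.6% on chromosome 18 (31.4 to 56.7%). Chromosome 4 lay above chromosomes 2, 18 and 20. Over the 5 intervals it was 55.5% (51.7 to 59.2%), against 37.3% of all APOC2 peaks of the series and 64.1% (61.3 to 66.8%) in the comparison intervals. Without chromosome 20 it was 59.4% (54.7 to 63.9%), where the bounds also overlapped. The comparison interval of chromosome 6 had 48.6% (40.4 to 56.8%), as low as chromosome 20, and that of chromosome 3 had 51.4% (35.6 to 67.0%). The other comparison intervals lay between 55.2% and 71.0%.

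Whether a member peak was found in both libraries followed its height closely. Of vector members with 20 or more fragments at the summit, 152 of 158 (96.2%, 92.0 to 98.2%) were overlapped, of those with 12 to 19 fragments 192 of 307 (62.5%, 57.0 to 67.8%), and of those under 12 fragments 33 of 92 (35.9%, 26.8 to 46.1%). For APOC2 members the shares were 104 of 107 (97.2%, 92.1 to 99.0%), 147 of 211 (69.7%, 63.2 to 75.5%) and 128 of 365 (35.1%, 30.4 to 40.1%). On chromosomes 2, 4 and 8, all vector and APOC2 members of 20 or more fragments were overlapped. The 6 exceptions in the vector library lay on chromosomes 18 (1) and 20 (5), and the 3 in the APOC2 library likewise (1 and 2).

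The comparison intervals showed the same order of shares, with 96.4%, 71.4% and 39.1% for vector peaks and 98.2%, 64.8% and 34.2% for APOC2 peaks. So did the remaining vector peaks of the series, with 97.5%, 72.8% and 54.0%, but the remaining APOC2 peaks did not. Among them 30.8% (29.5 to 32.1%) of the 4727 peaks with 20 or more fragments were overlapped by a vector peak, 31.8% of those with 12 to 19 and 31.6% of those under 12. A tall APOC2 peak in a centromere interval therefore nearly always had a vector counterpart, and a peak as tall elsewhere usually had none. Median height did not differ as much between these remaining APOC2 peaks with a counterpart (28 fragments) and without (24) as among the members (14 and 9).

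**Figure D3:**
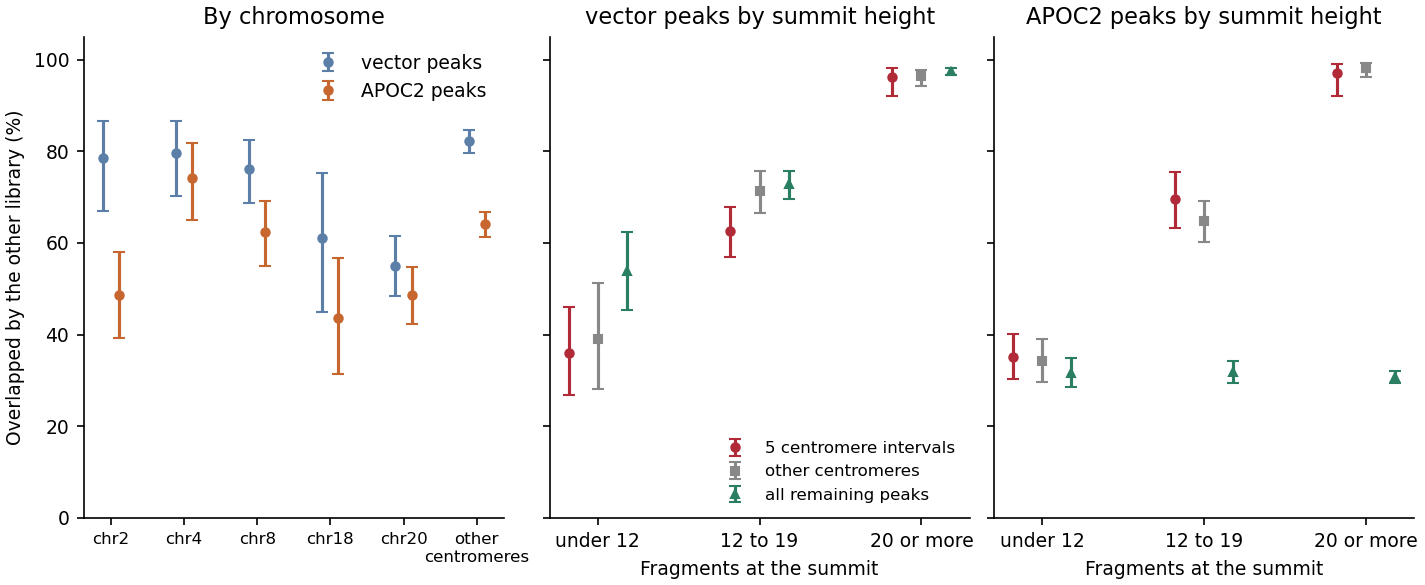
Percentage of peaks overlapped by the other library, with 95% Wilson intervals, by chromosome (left) and by number of fragments at the summit for vector peaks (middle) and APOC2 peaks (right), where other centromeres are the 7 comparison intervals. In the 5 intervals the share climbs from 35.1% to 97.2% with the height of APOC2 peaks, while among all remaining APOC2 peaks it stays near 31%.

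Overlap on chromosome 20 was also compared within classes of height. Among vector peaks of 12 to 19 fragments, 56 of 111 (50.5%, 41.3 to 59.6%) were overlapped there, against 76.1% (62.1 to 86.1%) on chromosome 2, 68.0% (54.2 to 79.2%) on chromosome 4 and 70.1% (59.2 to 79.2%) on chromosome 8. Only the bounds of chromosome 2 were clear of those of chromosome 20, though the shares on chromosomes 4 and 8 were also higher. For vector peaks under 12 fragments chromosome 20 had 11 of 50 (22%, 12.8 to 35.2%) and chromosome 8 had 11 of 22 (50%, 30.7 to 69.3%). For APOC2 peaks of 12 to 19 fragments the share on chromosome 20 was 71.6%, and on the other chromosomes it lay between 60.5% and 76.0%. Under 12 fragments, which held 142 of its 245 APOC2 peaks, chromosome 20 had the lowest share, 26.1% (19.54 to 33.8%), clear of chromosome 4 at 56.3% (39.3 to 71.8%) and with overlapping bounds to chromosome 8 at 42.6% (33.0 to 52.6%).

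**Figure D4:**
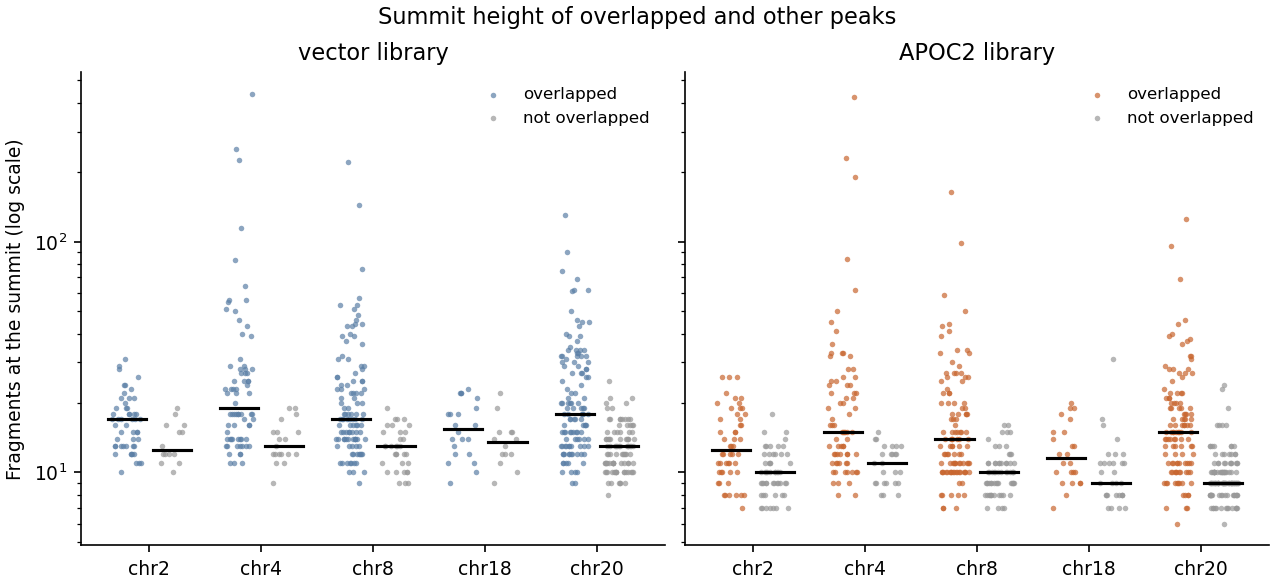
Number of fragments at the summit of every member (log scale) in the vector and APOC2 libraries by chromosome, split by whether the other library had an overlapping peak, with medians as bars. In the vector library the medians are 18 with and 13 without an overlap on chromosome 20, and in the APOC2 library 15 and 9.

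The interval of chromosome 20 was uneven in overlap as well as in density. Its stretches were delimited after the counts per 250 kb had been seen, and these included the overlapped peaks. The contrast in density was shaped by that choice, and the contrast in overlap may have been too. A left block at 26450000 to 26699999 and a right block at 28450000 to 28949999 held 103 vector and 103 APOC2 peaks, or 137 per Mb (112 to 167) in either library. The 1.75 Mb between them held 106 vector peaks (60.6 per Mb, 49.6 to 73.3) and 127 APOC2 peaks (72.6 per Mb, 60.5 to 86.3). In the blocks an overlap was found for 71.8% (62.5 to 79.6%) of the vector peaks and for 69.9% (60.5 to 77.9%) of the APOC2 peaks. In the middle the shares were 42.5% (33.5 to 52.0%) and 35.4% (27.7 to 44.1%). The right block was itself uneven. From 28450000 to 28699999, 35 of 44 vector and 35 of 42 APOC2 peaks were overlapped, but from 28700000 to 28949999 only 11 of 21 and 10 of 25.

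Peaks in the blocks were also taller, with median heights of 17 vector and 13 APOC2 fragments, against 13 and 9 in the middle. With peaks of under 20 fragments alone, 38 of 63 vector (60.3%, 47.98 to 71.5%) and 47 of 78 APOC2 peaks (60.3%, 49.2 to 70.4%) in the blocks were overlapped, against 28 of 88 (31.8%, 23.0 to 42.1%) and 37 of 119 (31.1%, 23.5 to 39.9%) in the middle. Background over 1 control fragment was no more common in the middle, where 93.4% of vector and 96.1% of APOC2 summits were at or under it, against 85.4% and 83.5% in the blocks. To the right of 28950000, where FRG1DP and FRG1BP lie, there were 9 vector and 12 APOC2 peaks, and 0 of them were overlapped (upper Wilson bounds 29.9% and 24.2%).

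Member peaks without a counterpart were lower and shorter than those with one. Over the 5 intervals the 180 unmatched vector peaks had a median of 13 fragments (12 to 13) and 273 bp (265 to 288), and the 377 matched peaks 18 fragments (17 to 18) and 324 bp (315 to 345). In the APOC2 library these were 9 fragments (9 to 10) and 255 bp (245 to 264) for 304 unmatched peaks, and 14 (13 to 15) and 336 bp (317 to 352) for 379 matched peaks. The median distance to the nearest peak of the other library was 3712 bp for unmatched vector peaks and 4856 bp for unmatched APOC2 peaks, and 32 and 54 of them had it within 1 kb.

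By fold enrichment, the strongest unmatched vector peaks were chr18:19413594-19413901 with a fold enrichment of 11.4 (22 fragments), and chr20:27622292-27622626 and chr20:28547272-28547721 with 10.9 each (21 fragments). Their nearest APOC2 peaks were 18931, 10337 and 522 bp away. The strongest unmatched APOC2 peaks by the same measure were chr2:92636580-92636965 with 10.5 (18 fragments), and chr18:19123814-19124108 and chr20:26642212-26642507 with 9.40 each (16 fragments), with vector peaks 1813, 1069 and 1750 bp away. Some unmatched summits were higher but stood over more control signal: chr20:28552089-28552338 had 25 vector fragments over a background of 3, and in the APOC2 library chr18:20561727-20562057, chr20:30377225-30377442 and chr20:26009868-26010181 had 31, 24 and 23 over 9.98, 6.66 and 2.54.

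At matched sites the height differed little between the libraries. Peaks were paired by longest overlap, which gave 374 member pairs whose summits lay a median of 34.5 bp apart, 234 of them within 50 bp. With APOC2 divided by vector, fold enrichment had a median log2 ratio of -0.19 (-0.22 to -0.13). The lowest background listed was 1.00 for the vector library and 0.81 for the APOC2 library. The listed APOC2 pileup is on the same smaller scale as its background, so this difference in floor cannot be read by itself. Without the added 1 in fold enrichment, the median log2 ratio over the 374 pairs was -0.060 (-0.093 to 0.017), so its sign was not resolved. With pileup scaled to the depth of the control in either table, assuming that both had the same control, the median log2 ratio was -0.08 (-0.12 to -0.01), a fold of 0.944.

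The chromosomes were alike within counting error in this respect. The median log2 ratio of depth-scaled pileup was -0.04 on chromosome 2 (51 pairs, -0.19 to 0.13), -0.07 on chromosome 4 (74 pairs, -0.14 to 0.06), -0.10 on chromosome 8 (109 pairs, -0.18 to -0.02), -0.07 on chromosome 18 (22 pairs, -0.37 to 0.38) and -0.08 on chromosome 20 (118 pairs, -0.17 to 0.03). Between 38.5% and 45.5% of the pairs of each chromosome had a ratio above 0. With fold enrichment the medians were -0.15, -0.17, -0.20, -0.17 and -0.19 in the same order. The comparison intervals had -0.04 (-0.08 to -0.01) over 744 pairs with depth-scaled pileup.

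On the remaining parts of the same chromosomes, pairs were mostly higher with APOC2. Their median log2 ratio of depth-scaled pileup was 0.50 on chromosome 2 (0.40 to 0.65), 0.31 on chromosome 4 (0.07 to 0.54), 0.62 on chromosome 8 (0.54 to 0.67), 0.53 on chromosome 18 (0.36 to 0.83) and 0.28 on chromosome 20 (0.13 to 0.49). On chromosomes 2, 4, 8 and 20 these bounds lay clear of those inside the interval, and on chromosome 18, with 22 pairs inside, they overlapped slightly. The contrast within a chromosome does not depend on the assumed depths, since both parts share the same scaling.

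A pair was called when depth-scaled pileup differed at least 1.5 times. Of the 374 member pairs, 18 were higher with APOC2 (4.81%, 3.07 to 7.48%), against 20.2% of all pairs of the series, and 34 were lower (9.09%, 6.58 to 12.4%), against 5.21%. The comparison intervals had 4.44% higher and 8.20% lower, so this division was common to both groups of centromeres. On the rest of chromosome 8, 117 of 221 pairs (52.9%) were higher and 0 lower, and on the rest of chromosome 2, 29 of 68 (42.6%) and 1.

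**Figure D5:**
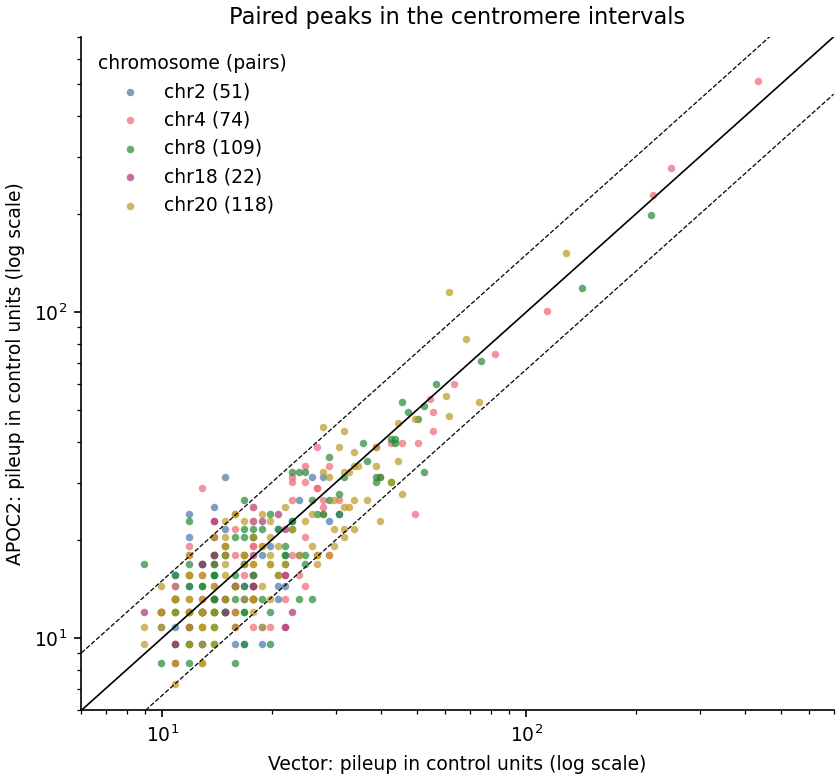
Pileup at the summit in units of the control's depth for each of the 374 member pairs, vector against APOC2 on log scales, with the line of equality (solid) and 1.5-fold limits (dashed), coloured by chromosome. The pairs follow the line of equality, with 18 above and 34 below the dashed limits.

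The largest rises were from 12.9 to 28.8 depth-scaled fragments at chr4:50809366-50809589 (log2 ratio 1.16), from 14.8 to 31.2 at chr2:92823841-92824304 (1.07) and from 11.9 to 24.0 at chr2:92677674-92678022 (1.02). The largest falls were from 49.5 to 24.0 at chr4:51125104-51125473 (-1.04), from 19.8 to 9.61 at chr8:45262305-45262596 (-1.04) and from 21.8 to 10.8 at chr18:19125177-19125571 (-1.01). Apart from the pair at 51125104, which started at 50 fragments, these had at most 26 fragments in either library. A tall pair above the upper limit, chosen after its values were seen on the plot of pairs, was at chr20:28496760-28497082. Depth-scaled pileup there went from 61.4 (vector) to 115 (APOC2). The listed backgrounds were 24.0 and 19.98, but the APOC2 value was not depth-scaled, so they do not show a lower control in that library.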

How the data were processed

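The submitters' processing notes name Bowtie2 2.2.9, MACS2 2.0, HOMER and build hg38, without their roles, and the control library, thresholds and treatment of duplicate or multiply aligned reads are not given in the sources used here. Each library had 1 peak table. Per the file headers, the deposited tables give a fragment pileup (signal) at each summit and a fold enrichment over local background. The deposited columns whose names were lost held -log10 of the p-value and of the q-value, as judged from their place. Read totals were not given. The deposited vector pileups were whole multiples of 0.98954 for 99.8% of peaks (within 0.006), which gave fragment numbers. APOC2 pileups were whole, and 63.9% of that table's backgrounds between 1.5 and 20 lay within 0.002 of multiples of 0.83248, so its pileup was divided by 0.83248 to reach control units. With a common control, the depth of the APOC2 library would be 0.824 times that of the vector library. Overlap was counted over all peaks of the series with Python 3.11.15 and bedtools 2.31.1, after tests on simulated peak sets. Shares carry Wilson, densities exact Poisson and medians binomial order-statistic 95% intervals. Genes came from RefSeq for GRCh38.p14. Peaks were named by rank within chromosomes (fold enrichment, length, lack of a counterpart, change) or nearness to a gene. The intervals, lists and measures were chosen with earlier results of these data known. Alternatives are given in the closing section.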

Additional observations from a re-analysis of the deposited data

How the results depend on the processing

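Of 306 recomputed values, 224 stayed within the 95% interval of the reported value, 73 left it and 9 changed direction. With 1 library per condition, no replicate could be left out, and no paired analysis was possible because each group had 1 library. Values within their interval in every case were those with a q-value of at most 0.001 (24 values), without peaks at or within 1 kb of a gene (24), with peaks touching the interval (24), with peaks within 1 kb merged (18), with the gene-free part of the interval as its length (10) and with one-to-one overlaps (6). The outcome was fixed in advance for peaks touching the interval, since no peak straddled an edge. It was also fixed for chromosomes 2, 4, 8 and 18 in both gene settings, since their intervals held no annotated gene and no peak near one. Such values say nothing about stability. Leaving out chromosome 2 or 4 moved none of 6 pooled values each. Without chromosome 20 the pooled overlapped share was 76.0% (71.1 to 80.2%) for the vector library and 59.4% (54.7 to 63.9%) for the other. Both were still lower than in the comparison intervals, but with overlapping bounds. Pooled density, a setting added after the data were seen, was 43.0 (vector) and 51.9 (APOC2) peaks per Mb without chromosome 18, where the deficit against the comparison intervals ended, 28.4 and 34.8 without chromosome 8, and 26.1 and 33.9 without chromosome 20.

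Keeping as many top-ranked APOC2 as vector peaks changed the most, because low APOC2 peaks are removed by construction. The ratio of peak numbers turned to 0.390 over the 5 intervals, and to 0.415, 0.495, 0.434, 0.278 and 0.327 on chromosomes 2, 4, 8, 18 and 20. In the same order the overlapped share of vector peaks was 36.3% in all, then 35.4%, 47.3%, 39.2%, 22.2% and 32.3%, and that of APOC2 peaks 92.2% in all, then 85.2%, 95.7%, 90.3%, 80.0% and 95.8%. The median log2 ratio of fold enrichment was -0.076 in all and -0.0038 and -0.105 on chromosomes 4 and 8, and turned to 0.080 and 0.20 on chromosomes 2 and 18.

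When peaks below a fold enrichment of 5 were dropped, the ratio of peak numbers was 1.06 in all (0.94 to 1.19), no longer clear of 1, and 0.960 on chromosome 20, where it changed direction, and 61.1% of APOC2 peaks were overlapped in all and 55.0% on chromosome 20. The comparison intervals then had 79.5% of vector peaks overlapped, and all remaining peaks had a ratio of 2.41, 79.7% and 32.8% overlapped and a median log2 ratio of 0.11. The APOC2 median fold enrichment was 7.19 in all, and the APOC2 median pileup on chromosome 20 was 12. When 50% of both peaks had to overlap, the shares were 61.0% (vector) and 49.8% (APOC2) in all and 46.8% and 42.0% on chromosome 20. When peaks within 1 kb counted, they were 73.4%, 63.4%, 64.5% and 58.8%.

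The median log2 ratio was below 0 by each measure, but its sign was not resolved by all of them. With pileup as listed, in units of unequal depth, it was -0.35 in all and -0.31, -0.34, -0.36 and -0.35 on chromosomes 2, 4, 8 and 20. With depth-scaled pileup it was -0.083 in all, -0.098 on chromosome 8 and -0.083 on chromosome 20, and the bounds for chromosomes 2, 4, 18 and 20 included 0. Without the added 1 it was -0.060 in all (-0.093 to 0.017), -0.0031 on chromosome 2 (-0.15 to 0.17) and -0.033, -0.068 and -0.060 on chromosomes 4, 8 and 20, all with bounds that included 0.

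Shared peaks alone were larger by every measure that moved. Vector medians were 324 bp, 17.8 pileup and 8.92 fold enrichment in all, and 347 bp, 17.8 and 8.58 on chromosome 20. APOC2 medians were 336 bp, 14 and 8.30 in all, 317.5 bp, 12.5 and 7.47 on chromosome 2, 322 bp, 14 and 8.30 on chromosome 8, a pileup of 11.50 and a fold enrichment of 6.91 on chromosome 18, and 369 bp, 15 and 8.30 on chromosome 20. The effect of depth on the overlap of low peaks was not tested, and the lack of a counterpart for a low peak does not show that signal was absent in the other library.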
